A study of Homo sapiens with 9 samples.

Results

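The 6 genes that write and remove the methyl mark on cytosine in human DNA were chosen here by name, namely the DNA methyltransferases DNMT1, DNMT3A and DNMT3B and the TET dioxygenases TET1, TET2 and TET3. They are 6 of 26485 gene models counted in RNA-seq libraries of HAP1 cells, and all 6 passed the filter on low counts in both comparisons. HAP1 cells are human, nearly haploid and adherent, and descend from KBM-7, a line from a patient with chronic myeloid leukaemia. The cells were wild type with no treatment named, and they were sorted into lysis buffer as single cells (3 libraries), 10 cells (2 libraries), 100 cells (2 libraries) or 1000 cells (2 libraries). Total RNA was isolated on NAxtra magnetic beads, treated with DNase, and made into libraries with the SMART-Seq Stranded kit, which amplifies cDNA by PCR and carries no molecular identifiers. The libraries are called biological replicates and numbered within each cell number, but separate cultures are not named, so p-values measure only the spread between these libraries. In libraries of 10 or more cells a level is an average, and fewer cells that express a gene cannot be told apart from less RNA of it per cell.

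In vertebrates the methyl mark sits mostly on CG dinucleotides. DNMT1 copies it onto the new strand after replication, with UHRF1 as the factor that finds hemimethylated sites. DNMT3A and DNMT3B place it on unmethylated sites, and the catalytically inactive DNMT3L stimulates them, as known from mouse germ cells. The TET enzymes oxidise 5-methylcytosine to 5-hydroxymethylcytosine and beyond, using 2-oxoglutarate and iron, and thymine DNA glycosylase (TDG) with base excision repair can then restore plain cytosine. In human blood, TET2 and DNMT3A are known as genes that are often mutated in myeloid disease. DNMT3B and TET1 are known for high expression in pluripotent cells.

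Libraries held 42842970 to 61645865 counts assigned to genes, and 13968 to 14478 gene models were detected in single cells against 16283 to 18634 in the libraries of more cells. BCR and ABL1, which are fused in KBM-7 and HAP1, summed to 13.8 to 44.2 CPM (the usual counts-per-million scale, with each library total adjusted by edgeR's TMM method) in single cells and 32.9 to 39.7 CPM in the other libraries. Of 10 myeloid and erythroid markers, 8 were at 0 in all single cells, and their sums were 0 to 2.80 CPM in single cells and 0 to 1.38 CPM in the others. Sums over 8 fibroblast markers were 7.59 to 15.3 CPM against 10.2 to 18.2 CPM, with 6 at 0 in all single cells. Sums for 6 keratinocyte markers were 0.392 to 4.33 CPM against 6.72 to 12.6 CPM, with 5 at 0 in all single cells. Sums for 7 plasma cell markers were 145 to 205 CPM against 188 to 210 CPM, with 5 at 0 in all single cells. Nearly all of these sums came from XBP1 (means of 134 and 151 CPM) and SDC1 (49.2 and 51.0 CPM).

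In hg38 the counted models were DNMT1 at chr19:10133346-10195079 (minus strand, 5400 exonic bases), DNMT3A at chr2:25232961-25342590 (minus, 5664), DNMT3B at chr20:32762385-32809356 (plus, 4630), TET1 at chr10:68560360-68694482 (plus, 9584), TET2 at chr4:105145875-105279803 (plus, 15321) and TET3 at chr2:73986404-74108175 (plus, 11387). No 50-base word was shared between any 2 of the 6 genes in the GENCODE transcripts, so paralogs do not share whole reads of that length, while 1.01% of DNMT1 words and 0.0244% of DNMT3A words also occurred in other genes. MIR1301 lies inside DNMT3A on the same strand and was at 0 CPM in single cells and 0.00323 CPM in the other libraries on average. TET2-AS1 overlaps TET2 on the opposite strand and averaged 0.0327 CPM in single cells and 0.0274 CPM in the others, and reads were counted by strand. Counts are per gene, so isoforms of a gene were not separated.

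Promoter sequence is shown for DNMT3A, the member that varied most among single cells, and TET2, the member that passed the test between single cells and larger inputs. Both stretches are the 150 bases before the RefSeq start (GRCh38.p14) that coincides with the 5′ end of the counted model. They are written on the gene's strand with each CG in capitals, since CG is the site these enzymes act on. There were 6 starts listed for DNMT3A and 2 for TET2, and which of them HAP1 cells use was not measured.
DNMT3A promoter, chr2:25342591-25342740, minus strand: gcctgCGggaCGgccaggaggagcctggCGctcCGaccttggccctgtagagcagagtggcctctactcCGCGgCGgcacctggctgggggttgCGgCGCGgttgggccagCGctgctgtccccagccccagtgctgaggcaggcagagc
TET2 promoter, chr4:105145725-105145874, plus strand: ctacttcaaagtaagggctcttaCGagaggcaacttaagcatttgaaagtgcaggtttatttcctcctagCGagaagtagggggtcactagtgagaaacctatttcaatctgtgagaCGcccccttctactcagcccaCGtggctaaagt
The DNMT3A stretch held 11 CG dinucleotides and the TET2 stretch 4. The same 150 bases held 13 for DNMT1, 3 for DNMT3B, 7 for TET1 and 25 for TET3, beside a median of 7 over 35116 RefSeq promoters, of which 89.1% held at least 1. For DNMT3B and TET3 the nearest listed RefSeq start lay 17467 and 1494 bases from the 5′ end of the counted model. CG reads the same on both strands. The counts carry no methylation calls, so the state of these sites was not measured.

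Which of the paralogs HAP1 cells used was read from CPM per kilobase of gene model, the scale on which levels of different genes can be set side by side. DNMT1 was the highest member in every library, at 81.6 ± 13.2 CPM per kb (SD, n = 3) in single cells and 84.8 ± 3.14 (SD, n = 6) in the 6 libraries of more cells. TET1 came next in every library, at 34.0 ± 7.23 CPM per kb in single cells and 30.4 ± 2.36 in the others. TET3 followed in every library, at 16.0 ± 3.01 and 13.1 ± 1.03 CPM per kb. TET2 was at 12.2 ± 2.74 CPM per kb in single cells and 7.55 ± 0.663 in the others, and DNMT3B was at 7.87 ± 0.485 and 8.18 ± 0.912. TET2 and DNMT3B were the neighbours that changed places: TET2 was above DNMT3B in the 3 single cells and in 1 library each of 100 and 1000 cells, and below it in the other 4. Their order depends on the gene model lengths used, of 15321 and 4630 bases. In CPM without that scaling TET2 was the higher in every library, with means of 187 against 36.4 in single cells and 116 against 37.9 in the others. DNMT3A was lowest in every library, at 4.07 ± 2.56 CPM per kb in single cells and 4.49 ± 0.386 in the others. In the 6 libraries of more cells, 20441 gene models were detected and ordered by their mean CPM per kb there. DNMT1 stood above 96.5% of them, TET1 above 88.7%, TET3 above 75.6%, DNMT3B above 66.1%, TET2 above 64.6% and DNMT3A above 55.3%.

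**Figure D1:**
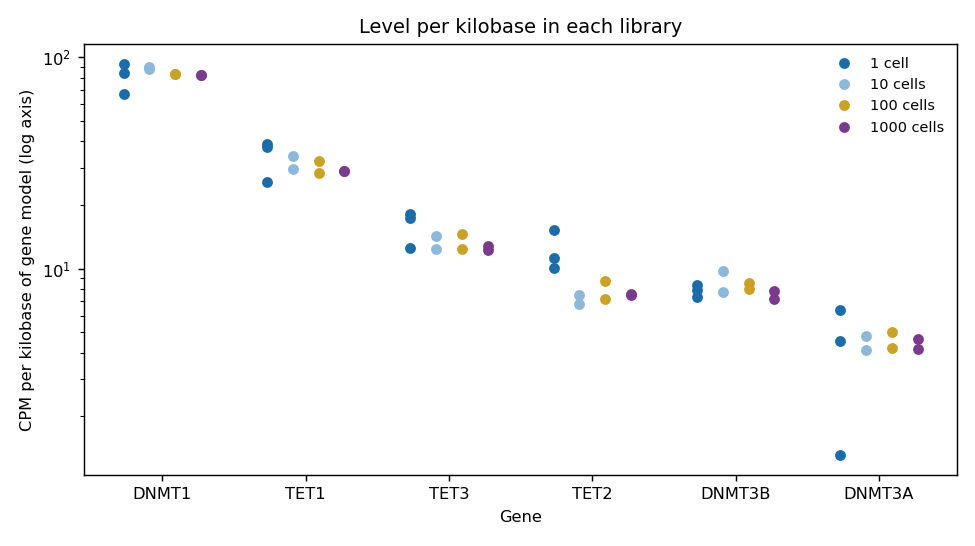
CPM per kilobase of gene model (vertical log axis) of each member in each of the 9 libraries, with a column of points for 1, 10, 100 and 1000 cells within each gene. DNMT1 lies highest in every library, at 67.4 to 93.4, and DNMT3A lowest, at 1.31 to 6.38, with TET2 and DNMT3B overlapping between them.

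DNMT1, the maintenance enzyme, had 504, 454 and 364 CPM in Single Cell Rep 1, 2 and 3, against 474 and 484 CPM in 10 cells, 450 and 448 CPM in 100 cells and 444 and 446 CPM in 1000 cells. The single cells lay on both sides of the other libraries, with Rep 3 below all of them. The log2 fold change of single cells over the 6 other libraries was -0.06 (standard error 0.092, adjusted p = 0.767, edgeR's quasi-likelihood test with Benjamini-Hochberg adjustment over 15603 genes), and it turned to 0.07 without Single Cell Rep 3.

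DNMT3A, a de novo enzyme, had 36.1, 25.6 and 7.41 CPM in the single cells, from 1870, 1308 and 387 counts, against 27.1 and 23.3 CPM in 10 cells, 28.5 and 23.8 CPM in 100 cells and 26.5 and 23.6 CPM in 1000 cells. Rep 1 was above every other library and Rep 3 below every other library. The group difference was -0.14 on the log2 scale (standard error 0.36, adjusted p = 0.850, edgeR), and without Rep 3 it was 0.28 (adjusted p = 0.267, where the alternatives ranged from 0.228 to 0.911).

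DNMT3B, the other de novo enzyme, had 38.6, 34.1 and 36.5 CPM in the single cells, against 45.3 and 35.9 CPM in 10 cells, 37.1 and 39.7 CPM in 100 cells and 33.1 and 36.1 CPM in 1000 cells. All 3 single cells lay within the range of the larger inputs. The log2 fold change was -0.06 (standard error 0.14, adjusted p = 0.844, edgeR).

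TET1, the TET enzyme of highest level, had 372, 359 and 246 CPM in the single cells, against 285 and 328 CPM in 10 cells, 311 and 270 CPM in 100 cells and 277 and 279 CPM in 1000 cells. Rep 1 and Rep 2 were above every larger input and Rep 3 was below every one. The difference of 0.16 on the log2 scale (standard error 0.12, adjusted p = 0.475, edgeR) did not pass. Without Rep 3 it was 0.32 and passed (adjusted p = 0.0277, edgeR, where the alternatives ranged from 0.0277 to 0.821). That fit leaves out the single cell that went the other way, and calls over all genes also change with the library left out. The share of all genes that passed in it is not given here, so the pass is not read as particular to TET1.

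TET2, which lacks the CG-binding CXXC domain of TET1 and TET3, had 154, 172 and 234 CPM in the single cells, against 104 and 115 CPM in 10 cells, 134 and 110 CPM in 100 cells and 115 and 116 CPM in 1000 cells. Every single cell was above every library of more cells, with the 100-cell library of 134 CPM nearest to them. TET2 was the 1 member that passed, and it rose by 0.69 on the log2 scale (standard error 0.13, adjusted p = 0.0188, edgeR). Its means were 187 ± 42.0 CPM (SD, n = 3) across single cells and 116 ± 10.2 CPM (SD, n = 6) across larger inputs. The fit takes 1 dispersion for both groups, though the SD of log2 CPM was 0.313 in single cells and 0.122 in larger inputs. The standard error and p of TET2 may therefore be too small. Over all genes tested, 2.22% passed as higher in single cells and 4.45% as lower, and in 4.98% every single cell was above every other library. The TET2 difference was 0.49 without Rep 3, where it still passed (adjusted p = 0.0119, edgeR). As for TET1, the share of all genes that passed in that fit is not given here, so this pass is not read as particular to TET2. It no longer passed without the second 100-cell library (0.67, adjusted p = 0.0619) or without either 1000-cell library (0.69 each, adjusted p = 0.0628 and 0.0634), and with any of these 3 libraries left out no gene of the whole table passed. Over all alternatives its adjusted p ranged from 2.61e-05 to 0.0634.

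TET3, known for oxidising methylated DNA in the mouse zygote, had 143, 206 and 198 CPM in the single cells, against 142 and 162 CPM in 10 cells, 166 and 141 CPM in 100 cells and 140 and 146 CPM in 1000 cells. Rep 2 and Rep 3 were above every larger input, while Rep 1 lay among them. The difference of 0.28 (standard error 0.12, adjusted p = 0.158, edgeR) did not pass, and without Rep 1 it was 0.43 and passed (adjusted p = 0.0126, edgeR, where the alternatives ranged from 0.0126 to 0.297). That fit leaves out the single cell that did not rise, and the share of all genes that passed in it is not given here. The pass is therefore not read as particular to TET3.

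**Figure D2:**
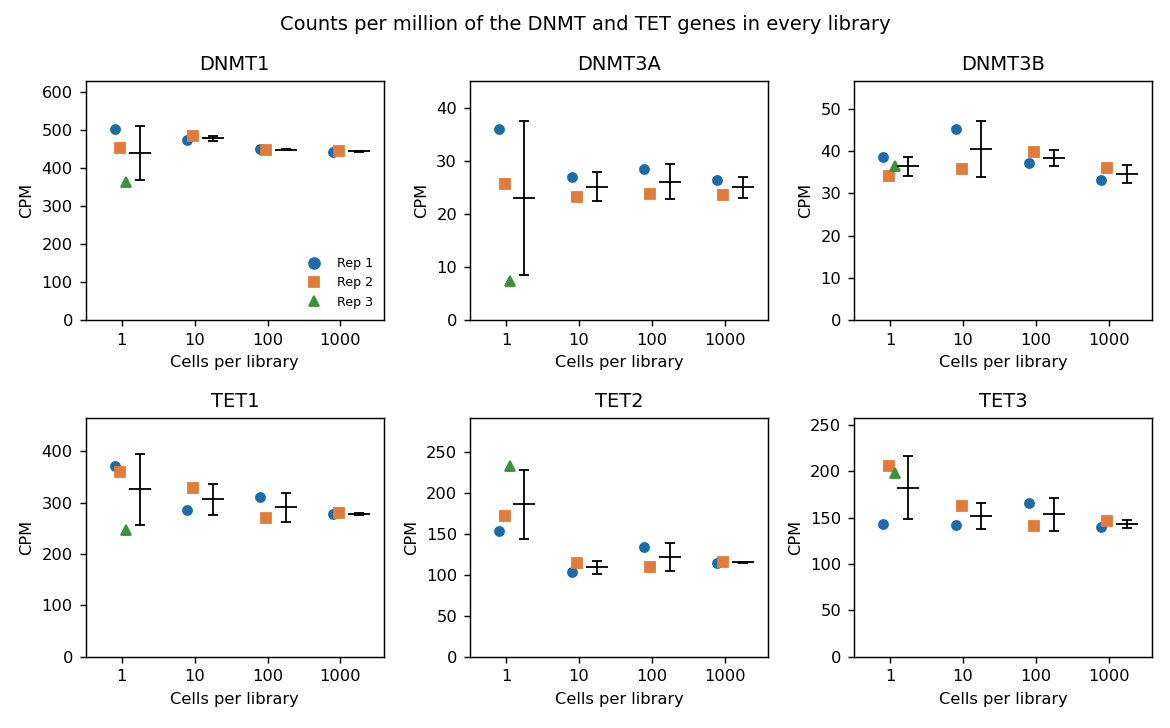
CPM of each member (vertical axes, from 0) against the number of cells per library, with a marker for each replicate and a bar for the mean ± SD at each cell number (n = 3 single cells, n = 2 otherwise). TET2 is above 150 CPM in all 3 single cells and at 104 to 134 CPM elsewhere, and the single cell marked Rep 3 is lowest for DNMT1, DNMT3A and TET1 and highest for TET2.

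Whether the members differed at the next lowest input was asked by setting 10 cells against 100 and 1000 cells, without the single cells. None of the 6 passed among 15926 genes tested with edgeR, where 0.0126% of all genes passed as higher and 0.00628% as lower, and 13.4% had an unadjusted p under 0.05. DNMT1 was the 1 member with an unadjusted p under 0.05, at 474 and 484 CPM in 10 cells against 444 to 450 CPM in the 4 libraries of 100 and 1000 cells. Its groups did not overlap, as in 10.7% of all genes in that direction, and its log2 fold change was 0.11 (standard error 0.043, adjusted p = 0.334, edgeR). DESeq2's Wald test called 266 genes of the whole table in place of 3, and none of the members. TET2, which was higher in single cells, had a difference of -0.12 at 10 cells (standard error 0.087, adjusted p = 0.604, edgeR). The other differences were -0.02 for DNMT3A, 0.16 for DNMT3B, 0.11 for TET1 and 0.04 for TET3, with adjusted p of 0.966, 0.596, 0.544 and 0.880 (edgeR).

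The balance between paralogs was read as log2 ratios of CPM per kb within each library, which do not depend on library scaling. DNMT3B exceeded DNMT3A in all 9 libraries. The ratio of DNMT3B over DNMT3A was 0.39, 0.70 and 2.59 on the log2 scale in the single cells, and 0.61 to 1.04 in the 6 others (0.86 ± 0.180, SD, n = 6). As a plain ratio this was 1.31, 1.63 and 6.03 in the single cells and 1.53 to 2.05 in the others, so Rep 3 stood above every other library and Rep 1 below. The ratio of DNMT1 over DNMT3A plus DNMT3B differed between inputs by less than its spread, at 2.79 ± 0.108 (SD, n = 3) in single cells and 2.74 ± 0.113 (SD, n = 6) in the others. In share of summed methyltransferase CPM per kb, DNMT1 made up 87.3% in single cells and 87.0% in the others, DNMT3B 8.57% and 8.39%, and DNMT3A 4.11% and 4.62%.

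Among the TET enzymes, TET1 exceeded TET3 in all 9 libraries. Its log2 ratio over TET3 was 1.63, 1.05 and 0.56 in the single cells and 1.15 to 1.26 in the others, so 1 single cell lay above and the other two lay below the whole range of the larger inputs. TET2 over TET3 was -0.32, -0.69 and -0.19 in the single cells and -0.93 to -0.71 in the others. All 3 single cells were above every larger input in this ratio, with Rep 2 nearest to them. TET1 made up 63.2%, 56.1% and 44.0% of summed TET CPM per kb in the single cells, against 58.1% to 61.2% in the others. TET2 made up 16.4%, 16.8% and 26.2% in the single cells, against 13.4% to 15.7%. Without scaling by gene model length the mean of TET2 over TET3 was 0.03 in single cells and -0.37 in the others, so which of the 2 was higher in single cells depends on the length used.

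**Figure D3:**
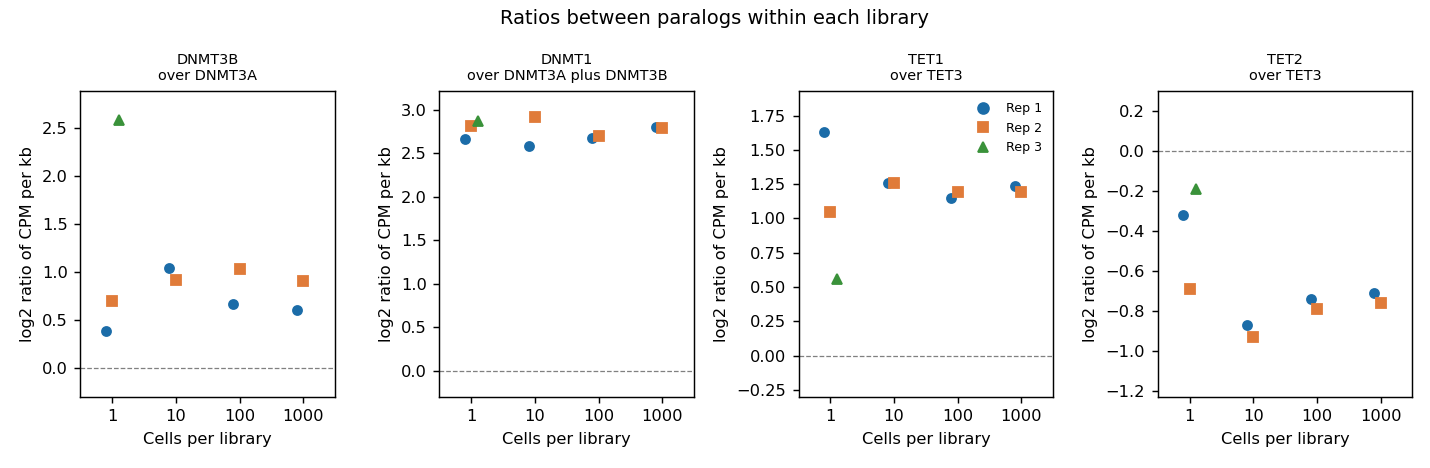
Log2 ratios of CPM per kb between paralogs (vertical axes) in each library, against cells per library, with a dashed line at 0, where both would be equal. The larger inputs lie close together, at 1.15 to 1.26 for TET1 over TET3, while the 3 single cells spread over 0.56 to 1.63, and DNMT3B over DNMT3A reaches 2.59 in Rep 3.

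The spread among single cells was measured as the SD of log2 CPM over the 3 single cells, and ranked among the same SD for all 84 choices of 3 of the 9 libraries. DNMT3A had the widest spread, with an SD of 1.20 against 0.123 over the 6 larger inputs. Among 7535 genes with a mean of 10 to 100 CPM the median SD was 0.479, and 92.4% of them had a lower SD than DNMT3A. DNMT3B, at a similar level, had an SD of 0.0892 against 0.155 over the larger inputs, and 2.67% of the same genes had a lower SD. Over these 3 cells the de novo enzymes thus lay toward opposite ends of the spread at their level. The place of DNMT3A rested mainly on Single Cell Rep 3, at 7.41 CPM against 36.1 and 25.6 CPM in Rep 1 and Rep 2.

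DNMT1 and the TET genes fell among the 2278 genes with a mean of 100 to 1000 CPM, whose median SD was 0.230. Their SDs were 0.240 for DNMT1, 0.330 for TET1, 0.313 for TET2 and 0.289 for TET3, against 0.0528, 0.109, 0.122 and 0.111 over the larger inputs. The shares of these genes with a lower SD were 53.0%, 73.7%, 69.7% and 64.9%. TET1 had the highest SD of all 84 choices in the single cells (exact one-sided permutation test, p = 0.0119, the smallest p these choices allow, adjusted p = 0.0774 over all genes). The single cells gave the highest SD in 15.4% of all genes and an exact p under 0.05 in 29.6%, and no gene passed after adjustment. All genes with the highest SD tie at the smallest p, so the adjusted 0.0774 of TET1 was the lowest of any gene. The lack of a pass therefore does not show how wide the spread of a gene was. DNMT1 ranked at 3 of 84 (exact permutation p = 0.0357, adjusted 0.137) and DNMT3A at 4 of 84 (exact permutation p = 0.0476, adjusted 0.161). TET3 ranked at 14 (exact permutation p = 0.167), TET2 at 42 and DNMT3B at 47 (exact permutation p = 0.560). For TET2, a choice that mixes single cells with larger inputs also takes in the difference between them. The TET1 SD was 0.0351 and the DNMT3A SD 0.349 without Single Cell Rep 3 (exact permutation p = 0.821 and p = 0.143).

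**Figure D4:**
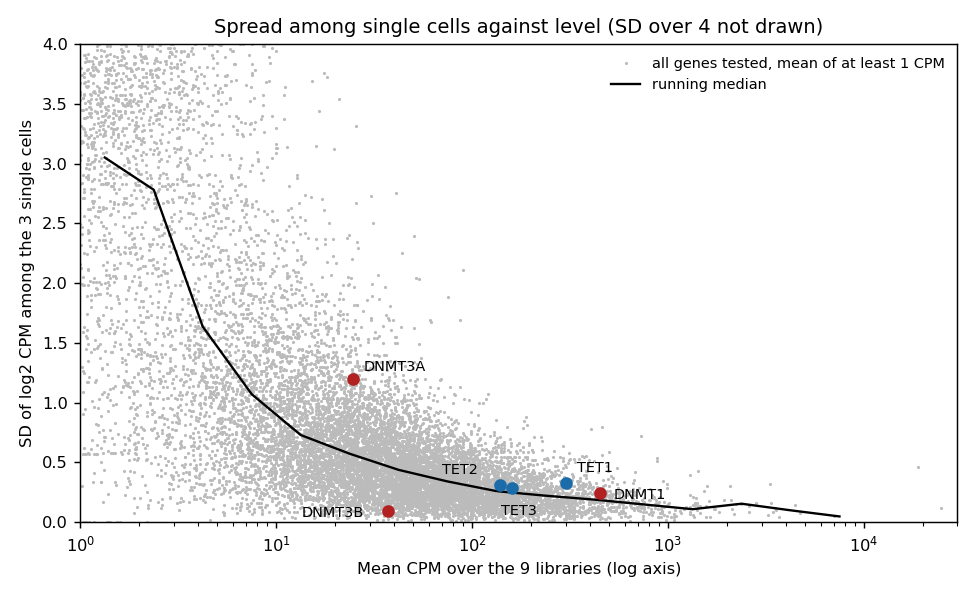
SD of log2 CPM among the 3 single cells (vertical axis) against mean CPM over the 9 libraries (horizontal log axis) for all genes tested that averaged 1 CPM or more, with the running median as a line and the 6 members in colour (red for DNMT, blue for TET). DNMT3A lies far above the line, at 1.20, DNMT3B below it, at 0.0892, and the other 4 members close to it.

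Single Cell Rep 3 carried most of the spread of DNMT3A and TET1. Against the mean of the other 8 libraries DNMT3A was at -1.84 on the log2 scale in it, outside their range, which is the 1 such case over 1 log2 unit among the 6 members and 3 single cells. Over all genes, 12.7% were that far below the others in Rep 3 and 9.72% that far above. TET2 was at 0.90 in Rep 3 and DNMT1 at -0.35. Summed over 3 genes each, the methyltransferases were at 579, 514 and 408 CPM in the single cells, against 503 to 547 CPM in the others, and the TET genes at 669, 737 and 678 CPM in the single cells, against 521 to 612 CPM in the others. Rep 3 was therefore the library with the lowest methyltransferase sum, of which DNMT1 made up 364 CPM, while DNMT3B, at 36.5 CPM, lay within its range elsewhere. All 3 single cells had a higher TET sum than any larger input. TET2 was the member above every larger input in all 3, while TET1 in Rep 3, at 246 CPM, was below every one. Such sums were not taken over other sets of 3 genes, so no background share is given. Other values moved in Rep 3 as well. Summed CPM of 20 G2/M phase genes was 6214, 6640 and 9057 in the single cells and 7175 to 8203 in the others. Some G2/M genes went the other way in Rep 3, such as UBE2C (log2 difference -2.12 from the mean of the other 8 libraries) and CDC20 (-0.43). Summed CPM of 20 S phase genes was 4187, 5075 and 4229 in the single cells and 4389 to 4905 in the others, so Rep 1 and Rep 3 were both below the larger inputs. CCNE1, which encodes the G1/S cyclin E1, had 26.9, 48.2 and 8.05 CPM in the single cells, against 20.4 to 29.6 CPM in the others. It was picked from the S phase genes after its values were seen, and others of them were above the other libraries' mean in Rep 3, such as FEN1 (log2 difference 0.47) and CDC45 (0.34). BCR had 23.9, 21.9 and 4.56 CPM in the single cells, against 20.5 to 25.9 CPM in the others. Their part in the DNMT3A, TET1 and TET2 values was not tested.

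The partners of the 6 genes were taken as 6 lists, of which 45 genes were tested, and 3 of them passed in single cells against larger inputs. Over all genes 6.67% passed, a share close to that of the lists. At an unadjusted p under 0.05 there were 10 of the 45, beside 24.5% of all genes. DESeq2 called 6 of the 45 and 2595 of all 15603 genes, and limma called 4 and 1277. All 7 maintenance partners were tested and none passed in edgeR, DESeq2 or limma (1 had an unadjusted p under 0.05), with a median log2 fold change of -0.10 beside 0.01 over all genes. USP7, a deubiquitinase that binds DNMT1, averaged 414 ± 9.47 CPM (SD, n = 3) across single cells and 387 ± 18.6 CPM (SD, n = 6) across larger inputs. UHRF1 was at 233 ± 45.6 and 250 ± 12.7 CPM, and HELLS, a chromatin remodeller needed for methylation of repeats, at 189 ± 34.1 and 222 ± 11.3 CPM. Of 6 genes on the de novo list, 4 were tested, and none passed or had an unadjusted p under 0.05 (median 0.04). They included TRIM28, the corepressor of zinc finger proteins, at 528 ± 95.9 and 498 ± 17.7 CPM, and the histone methyltransferases NSD1, at 370 ± 56.8 and 369 ± 15.3 CPM, and SETD2, at 286 ± 27.2 and 318 ± 10.5 CPM, whose marks the de novo enzymes bind.

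Of 7 readers of methylated CG, 1 passed and none was higher (median -0.05). MBD2, a methyl-CG binding subunit of the NuRD complex, had 56.9, 70.3 and 56.6 CPM in the single cells, against 77.9 to 91.0 CPM in the others. Every single cell was below every larger input, as in 10.0% of all genes, and MBD2 fell by 0.43 on the log2 scale (standard error 0.11, adjusted p = 0.0407, edgeR). None of 8 TET partners and 2-oxoglutarate genes passed in edgeR (median -0.02), where 2 had an unadjusted p under 0.05, near the share of 24.5% over all genes, and DESeq2 called 1. OGT, the O-GlcNAc transferase that binds TET proteins, was at 380 ± 58.8 CPM in single cells and 325 ± 12.8 CPM in the others, QSER1, known to protect DNA from methylation together with TET1, at 225 ± 40.0 and 232 ± 8.71 CPM, and IDH1, which makes 2-oxoglutarate, at 104 ± 36.7 and 125 ± 6.17 CPM.

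Of 12 base excision genes, 1 passed (median -0.10). NEIL3, a glycosylase for oxidised bases, had 43.6, 61.9 and 62.4 CPM in the single cells, against 25.6 to 40.2 CPM in the others, and rose by 0.78 (standard error 0.18, adjusted p = 0.0295, edgeR). TDG, the glycosylase that removes the oxidised products of TET enzymes, is named for that role after its values were seen, and was at 79.3 ± 16.6 CPM in single cells and 85.9 ± 6.72 CPM in the others. In the S-adenosylmethionine cycle, which supplies the methyl group, 1 of 7 passed (median 0.04). AHCY, which clears the S-adenosylhomocysteine left by methyltransferases, had 362, 361 and 383 CPM in the single cells, against 292 to 327 CPM in the others. Every single cell was above every larger input, as in 4.98% of all genes, and AHCY rose by 0.25 (standard error 0.064, adjusted p = 0.0407, edgeR). With 10 cells against 100 and 1000 cells, none of the 45 passed in edgeR, 5 had an unadjusted p under 0.05 and DESeq2 called 1.

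**Figure D5:**
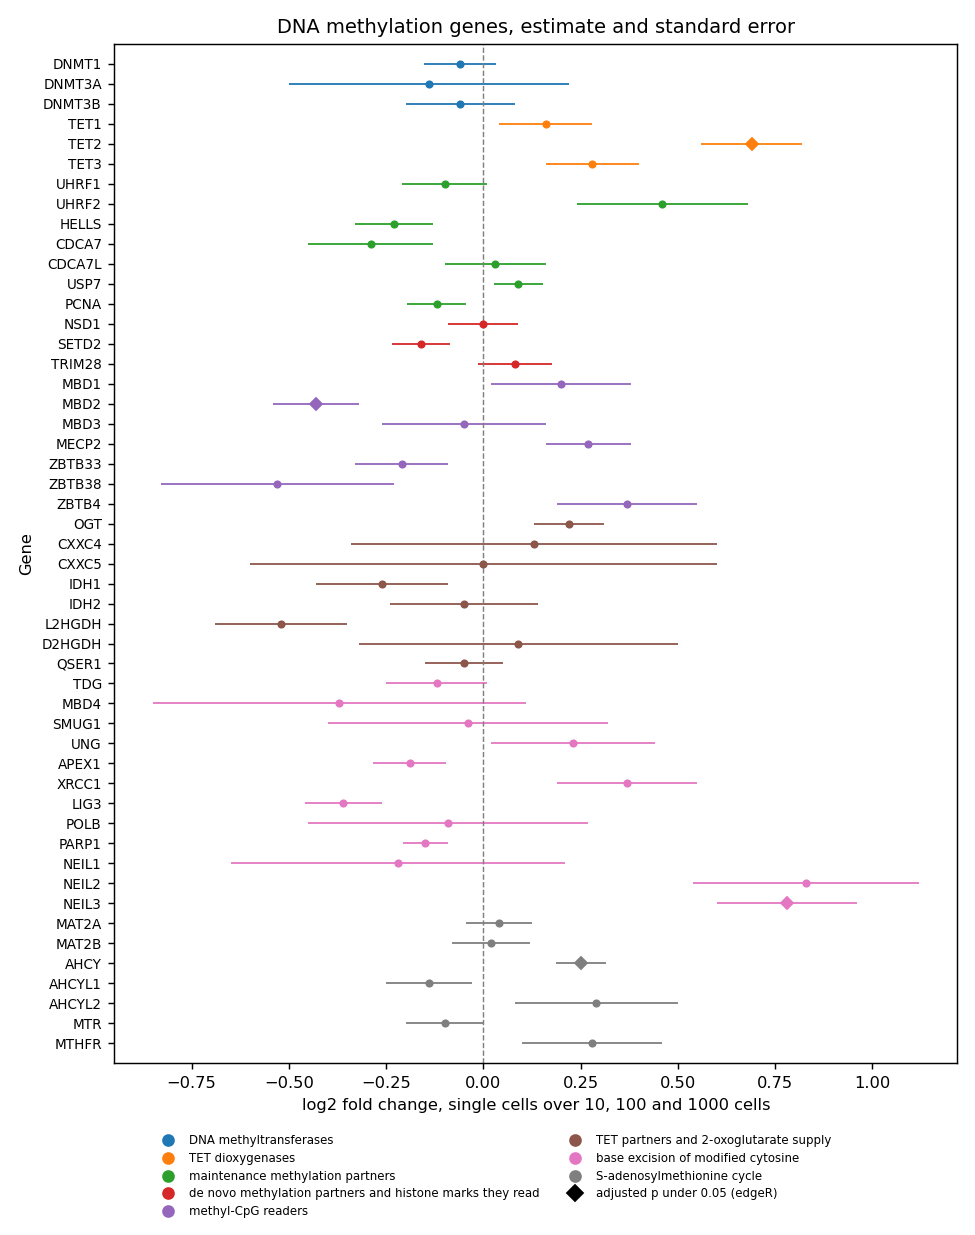
Log2 fold change of single cells over the libraries of 10, 100 and 1000 cells (horizontal axis, bars are the standard error) for the 6 members and their partner genes, coloured by list, with diamonds for an adjusted p under 0.05 in edgeR. DNMT3L is left out because its standard error was 1.7. TET2 (0.69), NEIL3 (0.78) and AHCY (0.25) lie to the right as diamonds and MBD2 (-0.43) to the left.

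Some partner genes that passed no group test stood apart in a single cell. In each single cell and direction the 45 partners did so less often than all genes, so this is not particular to them. The following were chosen after their values were seen, as those over 1 log2 unit from the other 8 libraries and outside their range. In Rep 1, 2 of the 45 were higher and 1 lower, in Rep 2 none and 3, and in Rep 3, 4 and 3, where 8.42%, 7.67% and 9.72% of all genes were higher and 9.35%, 10.7% and 12.7% lower. DNMT3L had 0, 0 and 10.7 CPM in the single cells, from 0, 0 and 557 counts, against 0 to 1.40 CPM in the others. Rep 3 was therefore the library of highest DNMT3L and lowest DNMT3A. MBD4, a glycosylase for mismatches at methylated CG, had 25.5, 5.88 and 62.1 CPM in the single cells, against 37.9 to 44.4 CPM in the others. CXXC5, a CXXC zinc finger protein, had 11.3, 0.882 and 13.5 CPM in the single cells, against 6.46 to 10.9 CPM in the others. CXXC4, a relative of CXXC5 that binds TET2, had 16.9, 16.0 and 2.53 CPM in the single cells, against 9.44 to 14.3 CPM in the others. The rest were UHRF2, NEIL1 and NEIL2 in Rep 1, D2HGDH in Rep 2 and Rep 3, and ZBTB38 and POLB in Rep 3.

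Each member was also set beside the 9874 genes that averaged 10 CPM or more, by Pearson's r of log2 CPM over the 9 libraries. These are descriptions over 9 points, and each point is 1 library whose depth enters both genes. For DNMT3A, NUS1 (r = 0.996), PGPEP1 (0.993) and SLC25A43 (0.989) were nearest, and 416 genes had an r over 0.9. NUS1 had 103, 88.2 and 44.2 CPM in the single cells, against 80.8 to 89.2 CPM in the others, with Rep 3 lowest as for DNMT3A. For DNMT1, RRS1 (0.990), JMJD1C (0.986) and SETDB1 (0.977) were nearest, with 196 genes over 0.9. For DNMT3B the nearest were VPS4A (0.795), FAM120AOS (0.789) and TTF2 (0.771), and no gene exceeded 0.9. For TET1 they were MTSS1L (0.986), SLC19A1 (0.968) and PES1 (0.962), for TET2 DLGAP1 (0.977), RBSN (0.972) and ZBTB48 (0.970), and for TET3 INO80E (0.973), GIGYF1 (0.972) and FZD4 (0.971), with 57, 94 and 62 genes over 0.9. Among the members themselves r was 0.92 for DNMT1 with DNMT3A, 0.79 for TET2 with TET3, 0.74 for DNMT1 with TET1 and -0.65 for DNMT3A with TET2. Single Cell Rep 3 was the lowest library for DNMT1, DNMT3A and TET1 and the highest for TET2. These r therefore lean on 1 library, and their size or sign without it is not given here.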

How the data were processed

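The deposited counts are raw, 1 whole number for each of 26485 gene models in each of 9 libraries. Per the labels and the methods of the study, the authors used FastQC 0.11.9 for quality control, Trim Galore 0.6.7 for trimming, HISAT2 2.2.1 for alignment to hg38, SAMtools 1.16.1 for sorting and featureCounts (Subread 2.0.6) for counting on the reverse strand. Per the file headers, reads rather than pairs were counted and multi-mapped reads were left out. The annotation release is not given in the sources used here.

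Counts were analysed in R 4.3.3 with edgeR 4.0.16. CPM used TMM library sizes over all gene models, and log2 CPM a prior count of 2. Group tests used filterByExpr, TMM and the quasi-likelihood test, with Benjamini-Hochberg adjustment over all genes at 0.05, and were checked on simulated data. Spread used an exact permutation test over 84 choices of 3 libraries. DESeq2 1.42.0, limma 3.58.1, other filters and scalings, thinning, a replicate block and leaving out each library were alternatives. Library pairs had a chi-square per degree of freedom of 5.97 or more, so none was taken as a repeat deposit. The genes, lists and tests were chosen with earlier results of these data known. Named were all 6 members, the list genes that passed, otherwise up to 3 of highest CPM a list, and the 3 genes nearest to each member, with exceptions marked as chosen after their values were seen. All 6 members matched RefSeq promoters.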

Additional observations from a re-analysis of the deposited data

How the results depend on the processing

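In single cells against larger inputs, edgeR called 1041 genes, DESeq2 2595, edgeR without a filter 682, with at least 10 CPM in 2 libraries 576, and with a replicate block 2077. Leaving out 1 library gave 0 to 3188 calls. It was 0 without the second 100-cell library or either 1000-cell library, where the smallest adjusted p were 0.0569, 0.0540 and 0.0565. The member differences over the libraries left out were -0.17 to 0.07 for DNMT1, -0.63 to 0.28 for DNMT3A, -0.11 to 0.00 for DNMT3B, 0.05 to 0.32 for TET1, 0.49 to 0.80 for TET2 and 0.19 to 0.43 for TET3. The sign turned for DNMT1 (0.07) and DNMT3A (0.28) without Single Cell Rep 3, and for DNMT3B (0.00) without the first 10-cell library. With the replicate block DNMT1 was at 0.07, DNMT3A at 0.27, TET1 at 0.33 (adjusted p = 0.0410, edgeR), which passed, and TET2 at 0.49 (adjusted p = 0.0186, edgeR). Replicate numbers do not pair the libraries: over 12 pairs of the same number, deviations had an r of -0.04 to 0.05. A replicate 3 exists among single cells alone, so the block gives Single Cell Rep 3 a term of its own. That library then does not enter the difference, much as when it is left out. In 10 cells against 100 and 1000 cells, the 3 calls were 266 in DESeq2, 7 without a filter and 0 to 162 with 1 library left out. There DNMT3A ranged from -0.13 to 0.08, DNMT3B from -0.02 to 0.31 and TET3 from -0.07 to 0.13. Their signs turned for DNMT3A without the second 10-cell library (0.08) or the first 100-cell library (0.04), for DNMT3B without the first 10-cell library (-0.02) and for TET3 without the second (-0.07). The 2399 genes with the highest SD in single cells were 2462 to 3789 with 1 library left out, most without Rep 1, where fewer choices exist. Without length scaling, the mean log2 ratios were 0.57 for DNMT3B over DNMT3A, 0.96 for TET1 over TET3 and -0.37 for TET2 over TET3 in larger inputs, and 2.91 for DNMT1 over DNMT3A plus DNMT3B and 0.03 for TET2 over TET3 in single cells. The cause of the other changes was not tested. Counts of all members were 387 or more, but reads are PCR copies without molecular identifiers, so the number of molecules behind them and the loss at capture are unknown, and 3 single cells limit the precision.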

Other observations

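Germline genes that promoter methylation is known to silence in somatic cells were low in HAP1. Of 12 such genes, 3 passed the filter on low counts in single cells against larger inputs and none was called or had an unadjusted p under 0.05 (edgeR). MAEL, SYCP1 and PIWIL1, chosen after their values were seen, were at 0 counts in all 9 libraries. DAZL, an RNA-binding protein of germ cells, had 14.3, 4.69 and 0 CPM in the single cells, from 742, 239 and 0 counts, against 4.63 to 5.13 CPM in the others. TEX19 had 0.0193, 0 and 3.68 CPM in the single cells, against 0.310 to 1.20 CPM in the others, and SYCP3 had 1.02, 0 and 0 CPM against 0 to 0.322 CPM. Single cells held both the highest and the lowest DAZL and TEX19 values. The 3 genes averaged 5.37, 0.929 and 0.209 CPM over all libraries.

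Of 20 S phase genes none was called by edgeR in single cells against larger inputs (median log2 fold change -0.06), 4 had an unadjusted p under 0.05, beside 24.5% of all genes, and DESeq2 called 3, beside 2595 of all 15603 genes. Of 20 G2/M phase genes 2 were lower in edgeR, beside 4.45% of all genes (median -0.08), 5 had an unadjusted p under 0.05 and DESeq2 called 3. AURKA, a mitotic kinase, had 50.6, 54.1 and 83.1 CPM in the single cells, against 83.8 to 114 CPM in the others, and fell by 0.72 on the log2 scale (standard error 0.16, adjusted p = 0.0274, edgeR). CCNB1, which encodes cyclin B1, had 157, 190 and 247 CPM in the single cells, against 243 to 298 CPM in the others, and fell by 0.51 (standard error 0.13, adjusted p = 0.0372, edgeR). In both genes Rep 3 was the highest of the single cells.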
